A study of Mus musculus with 9 samples.

Results

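The genes described here encode 10 splicing factors rich in arginine and serine: Srsf1, Srsf2, Srsf3, Srsf4, Srsf5, Srsf6, Srsf7, Srsf10, Srsf11 and Tra2b. They were chosen by symbol and not by a rule on their values, although earlier results of these data were then known. They are 10 of the 54325 gene symbols and 89 of the 140658 transcripts in the deposited counts. The counts come from N2A cells, a mouse neuroblastoma line, and every library was made from cells given okadaic acid, which blocks protein phosphatases, at 200 nM for 2 h. No untreated cells were among the libraries. There were 3 groups of 3 libraries: input RNA without immunoprecipitation (Input), RNA recovered with control rabbit IgG (rIgG IP) and RNA recovered with antibody to phosphorylated UPF1 (p-UPF1 IP). All of this RNA had been cut with RNase I, so that short fragments were counted. The labels number the libraries of a group from 1 to 3 without naming separate cultures, and p-values therefore measure the spread between libraries, which may be technical. These are bulk libraries of 1 line, in which fewer cells with an RNA and less of that RNA per cell cannot be told apart.

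SR proteins bind short sequences in exons through RNA recognition motifs and help the spliceosome to choose splice sites through domains of arginine and serine repeats. Many of their genes can splice a highly conserved extra exon, often called a poison exon, or an intron after the coding sequence. Either leaves a stop codon well upstream of a last exon junction, where an exon junction complex downstream of the terminating ribosome lets UPF1 be phosphorylated and the mRNA be destroyed by nonsense-mediated mRNA decay (NMD). High levels of an SR protein can favor this splicing of its own pre-mRNA, so that NMD closes a feedback loop. UPF1 is an RNA helicase that binds many RNAs, while its phosphorylated form marks RNAs on which NMD has begun.

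In GENCODE M21 (GRCm38), which matched all 89 transcripts, 29 of them were protein-coding, 17 were of the NMD type, 29 retained an intron and 14 were other processed transcripts. The NMD type was annotated in 9 of the 10 genes and in no transcript of Srsf10, which is therefore described here without a poison exon. In 6 of the 9 genes (Srsf3, Srsf4, Srsf6, Srsf7, Srsf11 and Tra2b), a stop codon of an NMD-type transcript lay in an exon absent from the main coding transcript. In the other 3 (Srsf1, Srsf2 and Srsf5), the exon with the stop codon overlapped an exon of the main coding transcript. All 17 NMD-type transcripts had 67 to 1015 nt between the stop codon and the last exon junction. The windows below show the stop codons, in capitals, that lie in or before the exons described later, with 12 nt of the transcript on either side, as read from the GENCODE M21 transcripts.

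Srsf2-202: gcagtttcttccTAAgaaaatgctgcg
Srsf3-201: ctcaccaccctcTGAatctgcattagc
Srsf4-204: catgccccagctTAGagtgcttcaccc
Srsf6-201: gccttttgccatTAGacgcagggtgat
Srsf7-203: agtcagtcgcctTGAttcagaatgtca
Srsf11-212: gcttttgaaagtTGAgagcacacccct
Tra2b-206: ctcaggaataagTGAagctgaaatttg

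On the plus strand, these codons lay at chr17:29039485-29039487 (Srsf3), chr4:131884388-131884390 (Srsf4) and chr2:162932964-162932966 (Srsf6). On the minus strand, they lay at chr11:116852028-116852030 (Srsf2), chr17:80205054-80205056 (Srsf7), chr3:158023310-158023312 (Srsf11) and chr16:22259181-22259183 (Tra2b). The codon of Srsf2-202 is the normal stop codon of the gene. What sets this transcript apart from the main coding transcript is an extra splice of the sequence after it. The distance from its stop codon to the last junction is 217 nt. Srsf2-206, annotated as protein-coding, has the same exon with the stop codon and the same distance. The other 6 codons are premature and lie 67 nt (Srsf11-212) to 1015 nt (Tra2b-206) before the last junction.

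Depth was 25184464 to 29857955 counts for Input, 5312526 to 6246110 for the p-UPF1 IP and 79010 to 474491 for the rIgG IP. The 10 genes together held 9121 to 11849, 1663 to 1986 and 22 to 161 of these counts. In each library, 76.8% to 82.3% of all counts lay on its 10 most counted transcripts. At 3 counts, the smallest share that a library can show was 0.100 to 0.119, 0.480 to 0.565 and 6.32 to 38 CPM (counts scaled to the library total), in the same order, by counting error only. Replicate libraries differed by more than sampling noise (chi-square divided by its degrees of freedom, 6.01 to 21.9 over transcripts). This value includes any difference in how reads were split among transcripts, and it was not computed on sums per gene. Of 14 neuroblastoma markers, 13 were counted in every Input library, and their summed level was 299 to 332 CPM in Input and 313 to 342 CPM in the p-UPF1 IP. Of 9 markers of glia, blood, endothelium and fibroblasts, 3 were counted in every Input library and Aqp4 was at 0 in every library, and their summed level was 2.81 to 3.54 CPM in Input, 0 to 12.7 CPM in the rIgG IP and 11.7 to 14.7 CPM in the p-UPF1 IP. The part of these markers in the results below was not tested.

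The first comparison asked which of these genes were recovered with p-UPF1 out of proportion to their abundance. By counts summed per gene, 3 of the 10 were higher in the p-UPF1 IP than in Input and 6 were lower, while Srsf2 did not pass the test (edgeR's quasi-likelihood test, adjusted p under 0.05). Across all 16919 genes tested, 26.3% were called higher and 35.7% lower. The median log2 fold change was -0.69 for the 10 genes and -0.42 for all genes, after scaling by TMM, which sets a trimmed mean of log ratios over genes equal between libraries. Scaling by library totals alone moved the median of all genes to -0.01 and called 5709 genes higher and 4363 lower, so that the fold changes below are best read against these medians.

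Srsf10 (chr4:135855747-135869908), which acts as a splicing repressor when it is dephosphorylated, rose most in the p-UPF1 IP. Its TMM-scaled level was 27.3, 27.8 and 29.0 CPM in the 3 Input libraries and 53.0, 52.4 and 49.6 CPM in the 3 p-UPF1 IP libraries. The groups did not overlap and the log2 fold change was 0.88 ± 0.07 (SE, n = 3 per group, edgeR adjusted p = 1.68e-06). Srsf11 (chr3:158010473-158036639), an SR protein found with spliceosome components, followed with 17.0, 15.8 and 20.1 CPM in Input and 25.6, 25.5 and 31.3 CPM in the p-UPF1 IP. Its log2 fold change was 0.64 ± 0.12 (SE, edgeR adjusted p = 0.00075), and its groups did not overlap either. Srsf4 (chr4:131873617-131901706), one of the longest SR proteins, was at 7.56, 7.23 and 7.59 CPM in Input and 8.64, 8.78 and 10.1 CPM in the p-UPF1 IP. The log2 fold change of Srsf4 was 0.30 ± 0.11 (SE, edgeR adjusted p = 0.0327), and this call was lost in 7 of 13 alternatives (adjusted p 0.000313 to 0.233 over all 13), among them leaving out Input replicate 1 (0.33, adjusted p = 0.0527) or 2 (0.30, adjusted p = 0.0747) or p-UPF1 IP replicate 3 (0.25, adjusted p = 0.133).

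Srsf2 (chr11:116849901-116853094), which binds exonic enhancers and also acts in transcription elongation, was at 48.5, 45.4 and 52.2 CPM in Input and 48.1, 43.9 and 49.2 CPM in the p-UPF1 IP. These ranges overlapped, with a log2 fold change of -0.05 ± 0.08 (SE, edgeR adjusted p = 0.607). Relative to library totals the value was 0.36 (adjusted p = 0.00206, the lowest of 13 alternatives that reached 0.861), so that its direction depends on the scaling. The gene overlaps Mfsd11 and Mettl23 on the other strand, and whether the counting used strand is not given in the sources used here.

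Among the 6 genes that were lower, 3 fell by more than 1 on the log2 scale. Of all 16919 genes tested, 26.5% did so (edgeR adjusted p under 0.05), which is near 3 of 10. Srsf3 (chr17:29032628-29043373), the smallest SR protein and an adaptor for mRNA export, went from 79.0, 68.4 and 91.5 CPM in Input to 15.1, 11.3 and 11.7 CPM in the p-UPF1 IP. Its log2 fold change was -2.66 ± 0.14 (SE, edgeR adjusted p = 8.66e-08), the lowest of the 10. Srsf7 (chr17:80200080-80207307), a close relative of Srsf3 that also serves in mRNA export, went from 40.6, 42.4 and 45.9 CPM to 14.1, 11.3 and 10.7 CPM. Srsf1 (chr11:88047373-88053755), the founding member of the family and a regulator of both constitutive and alternative splicing, went from 49.2, 47.6 and 52.0 CPM to 19.0, 15.4 and 15.4 CPM. The log2 fold changes of Srsf7 and Srsf1 were -1.85 ± 0.11 and -1.59 ± 0.10 (SE, edgeR adjusted p = 1.79e-07 and 2.2e-07). In all 3 genes the highest p-UPF1 IP library lay well below the lowest Input library.

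The other 3 fell less. Tra2b (chr16:22244549-22266005), which binds GAA-rich exonic enhancers, went from 33.0, 34.9 and 39.9 CPM in Input to 16.8, 22.8 and 20.6 CPM in the p-UPF1 IP. Srsf6 (chr2:162931528-162937121), a regulator of alternative splicing, went from 53.0, 52.0 and 57.2 CPM to 38.0, 29.1 and 31.8 CPM. Srsf5 (chr12:80945504-80950507), which is induced early in several growth responses, went from 69.2, 65.5 and 80.8 CPM to 43.5, 43.1 and 49.4 CPM. Their log2 fold changes were -0.84 ± 0.12 for Tra2b, -0.72 ± 0.10 for Srsf6 and -0.66 ± 0.10 for Srsf5 (SE, edgeR adjusted p = 0.000122, 9.98e-05 and 0.000166), and no group overlapped its reference. Relative to library totals these values were -0.42, -0.31 and -0.25, still past the test. The plot of levels by library shows the same order from the genes that fell most to those that rose.

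**Figure D1:**
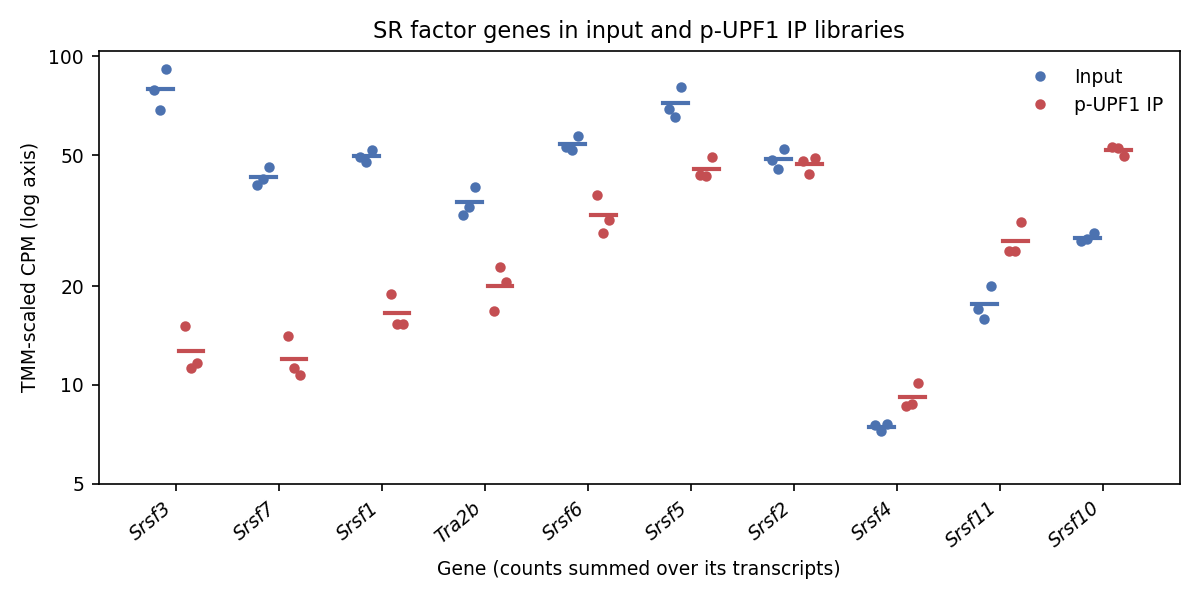
TMM-scaled CPM of each gene (log axis) in the 3 Input and the 3 p-UPF1 IP libraries. Points are libraries and lines are group means, with genes ordered by log2 fold change. Srsf3, at the left, lies between 68.4 and 91.5 CPM in Input and between 11.3 and 15.1 CPM in the p-UPF1 IP, while Srsf10, at the right, is the gene that rose most.

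Some fragments of these genes cannot be told from those of other gene models. Of all distinct 35-nt windows in the transcripts of a gene, 13.1% of those of Srsf5, 12.9% of Srsf3, 10.3% of Srsf10 and 9.44% of Tra2b also occurred in a transcript of another gene. The gene model Gm12966 took 403, 412 and 494 counts in Input but 0 in each of the p-UPF1 IP libraries, against 1592, 1468 and 2010 and then 257, 314 and 351 counts for Srsf5 itself. For Srsf3, Gm9761 took 338, 256 and 502 counts in Input but 0 in each of the p-UPF1 IP libraries, and Gm12355 took 106, 357 and 0 counts and then 0, 54 and 38. Gm5446 took 77, 127 and 103 Input counts against 0, 42 and 16 in the p-UPF1 IP beside Srsf10. The values of these genes are uncertain by the counts so split.

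The rIgG IP served to measure what the beads and an unspecific antibody recover. Over the rIgG IP, 2 of the 10 genes were higher in the p-UPF1 IP (Srsf10 and Srsf11), 1 was lower (Srsf3) and 7 did not pass (edgeR, adjusted p under 0.05). Of the 12033 genes tested, 18.5% were called higher and 5.56% lower (5.31% by more than 1 on the log2 scale), with a median log2 fold change of 0.91 for all genes and 0.06 for the 10. Srsf10 had 12, 5 and 3 counts in the rIgG IP libraries, or 29.9, 23.3 and 25.4 CPM, against 67.4, 66.0 and 62.2 CPM in the p-UPF1 IP at the scaling of this comparison. Its log2 fold change of 1.26 ± 0.29 (SE, edgeR adjusted p = 0.00255) passed the test in all 13 alternatives.

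Srsf11 had 7, 0 and 2 counts in the rIgG IP and a log2 fold change of 1.50 ± 0.47 (SE, edgeR adjusted p = 0.0203). That call was lost in 7 of 13 alternatives (adjusted p 0.00816 to 0.183), among them without rIgG IP replicate 2 (0.90, adjusted p = 0.183) or 3 (1.50, adjusted p = 0.0695). Srsf3 had 28, 6 and 0 counts in the rIgG IP, so that the 3 libraries of this group spanned 0 to 69.8 CPM around the 14.2 to 19.2 CPM of the p-UPF1 IP. Its log2 fold change of -1.51 ± 0.40 (SE, edgeR adjusted p = 0.00708) rested on rIgG IP replicate 1, without which it was -0.19 (adjusted p = 0.851, the highest of 13 alternatives, with 5.34e-05 the lowest). Values of the remaining 7 genes ran from -0.69 ± 0.40 for Srsf7 to 1.09 ± 0.63 for Srsf4, on counts of 0 to 33 per rIgG IP library. These values share the p-UPF1 IP libraries with the comparison over Input and are not a second measurement of them.

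**Figure D2:**
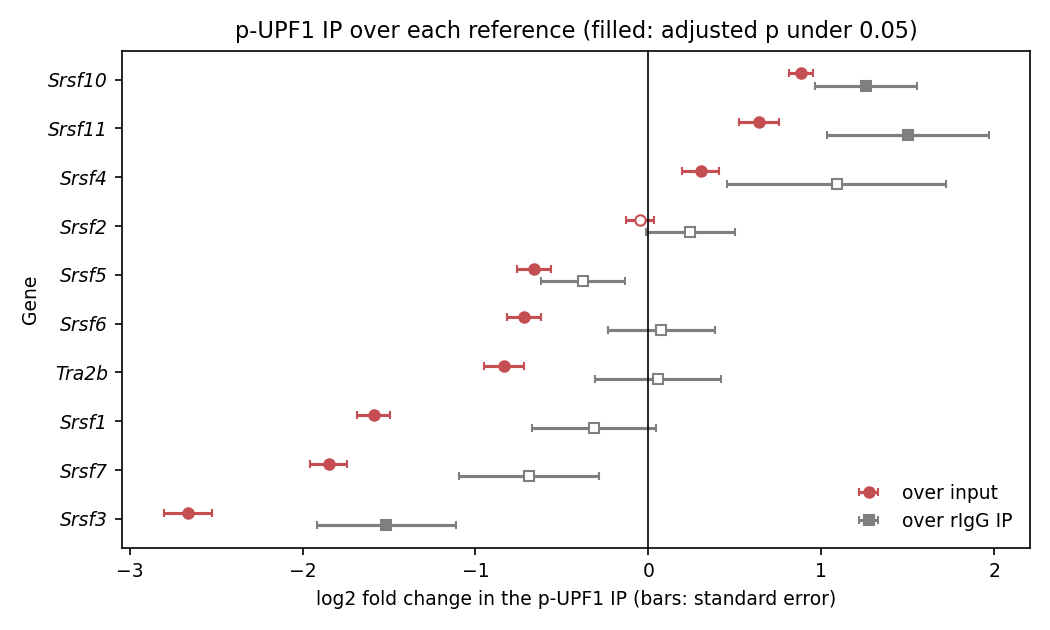
Log2 fold change of each gene in the p-UPF1 IP over Input (circles) and over the rIgG IP (squares), with standard errors as bars. Filled symbols mark an adjusted p under 0.05. Bars over the rIgG IP are longer, and Srsf10, Srsf11 and Srsf3 are the genes filled in both comparisons.

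Between the rIgG IP and Input, 0 of the 10 genes passed edgeR's test, 3 had an unadjusted p under 0.05 (all of them lower) and DESeq2 called 0. Over all 16280 genes tested, 0.584% were called higher and 0.313% lower at the adjusted threshold. The share of all genes at an unadjusted p under 0.05 was not computed. Whether 3 of 10 is unusual is therefore not known. The 10 log2 fold changes ran from -0.998 ± 0.27 for Srsf1 to -0.02 ± 0.26 for Srsf5 (SE, edgeR adjusted p = 0.142 and 0.969). Their median was -0.56, beside a lower median of -0.84 for all genes. With 22 to 161 counts for the 10 genes together per rIgG IP library, only large differences were detectable at this depth.

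The second question was whether, within a gene, the transcripts annotated for NMD took a larger part of the counts in the p-UPF1 IP than in Input. They did in 2 of the 9 genes that have such transcripts, Srsf2 and Tra2b, and they took a smaller part in 2 others, Srsf6 and Srsf7 (edgeR's test of a class within its gene, adjusted p under 0.05). Among all 2264 NMD classes tested, 13.6% were called larger and 12.3% smaller. In the other 5 genes, Srsf1, Srsf3, Srsf4, Srsf5 and Srsf11, the class did not pass.

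NMD-type transcripts of Srsf2 held 8.16%, 6.98% and 6.16% of the counts of the gene in Input, compared with 34.5%, 25.0% and 22.1% in the p-UPF1 IP. The mean share was 7.10% ± 1.0 and 27.2% ± 6.5 (SD, n = 3), and the log2 fold change of the class relative to its gene was 1.94 (edgeR adjusted p = 7.22e-05). So the summed count of Srsf2 hardly differed while its NMD-type part was larger in every p-UPF1 IP library. The protein-coding Srsf2-206 was given the same counts as the NMD-type Srsf2-202 in every library. The size of the NMD-type share thus depends on this split and on the annotation. Tra2b had 0, 19 and 15 counts on NMD-type transcripts in Input, or 0%, 2.43% and 1.51% of the gene, and 24, 36 and 23 in the p-UPF1 IP, or 24.2%, 21.7% and 15.8%. Its log2 fold change relative to the gene was 3.89 (edgeR adjusted p = 0.00287), again with no overlap between the groups. Srsf4 showed shares of 19.0%, 17.3% and 14.8% in Input, compared with 52.9%, 32.8% and 31.9% in the p-UPF1 IP, which did not overlap but rested on 21 to 33 counts per library and did not pass (log2 fold change 1.18, edgeR adjusted p = 0.438).

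In Srsf6 the order was the reverse. Its NMD-type transcript Srsf6-201 was the most counted of the gene in Input, where the class took 67.0%, 66.7% and 67.8% of the counts, against 28.1%, 29.2% and 12.4% in the p-UPF1 IP (log2 fold change relative to the gene -1.53, edgeR adjusted p = 0.000416). Srsf7 went from 199, 125 and 213 counts on its NMD-type transcript in Input to 0 in all 3 p-UPF1 IP libraries, which is from 21.3%, 13.1% and 18.6% of the gene to none (edgeR adjusted p = 1.74e-05). In Srsf1 the share was 18.7% to 24.2% in Input, compared with 7.14%, 0% and 21.1% in the p-UPF1 IP, and its log2 fold change of -1.14 (edgeR adjusted p = 0.214) depended on p-UPF1 IP replicate 3, without which it was -2.48 (adjusted p = 0.017, the lowest of 9 alternatives that reached 0.455). NMD-type transcripts of Srsf3, Srsf5 and Srsf11 never reached 2% of their gene in any Input or p-UPF1 IP library. The 4 calls for Srsf2, Tra2b, Srsf6 and Srsf7 held in all 9 alternatives that tested this class. A further alternative pooled NMD-type and retained-intron counts, and it does not test the NMD class by itself. In Srsf6 and Srsf7 the mean retained-intron share moved the other way, from 1.84% to 9.07% and from 1.90% to 19.9%. The smaller NMD-type part of these 2 genes therefore depends on how counts were split between the classes.

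**Figure D3:**
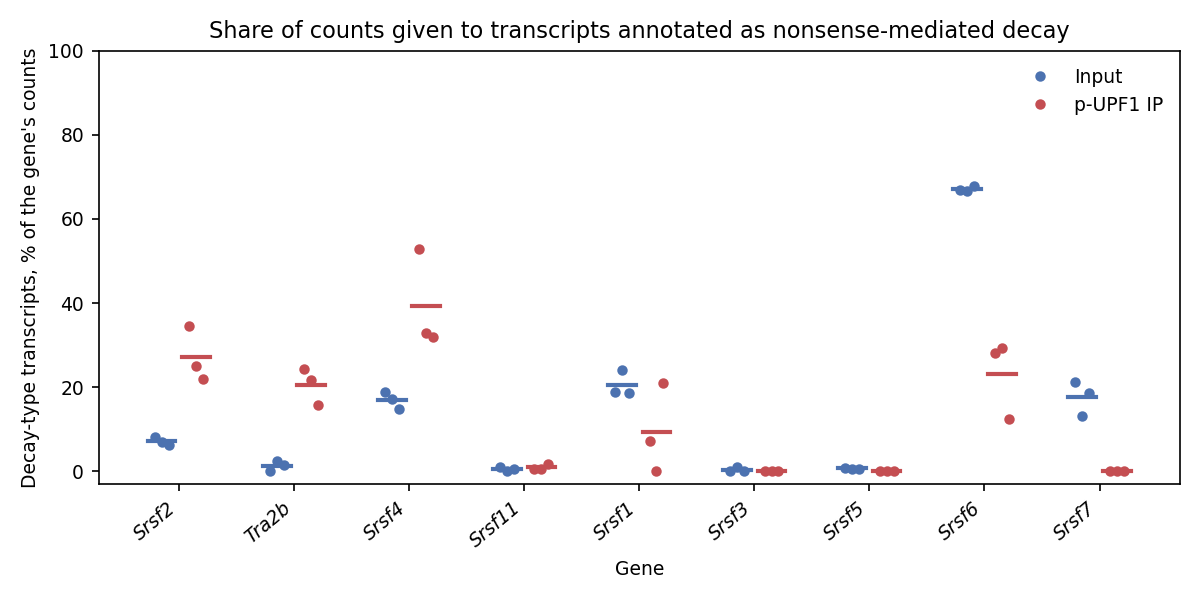
Share of a gene's counts on transcripts annotated as NMD, in percent, for the 9 genes that have them. Points are the 3 Input and 3 p-UPF1 IP libraries and lines are group means. The share is higher in the p-UPF1 IP for Srsf2 and Tra2b and lower for Srsf6 and Srsf7, by the test of each class within its gene.

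The rIgG IP held few counts of these classes. The NMD-type part was 13, 0 and 0 of 23, 10 and 4 counts for Srsf2, 0, 5 and 0 of 11, 5 and 2 counts for Tra2b, 12, 4 and 0 of 20, 6 and 3 counts for Srsf6 and 0, 4 and 0 of 13, 4 and 1 counts for Srsf7. Over the 10 genes together, the NMD-type share was 14.0%, 14.3% and 13.2% in Input, 16.1%, 26.7% and 13.6% in the rIgG IP and 13.3%, 10.4% and 8.96% in the p-UPF1 IP. The genes thus moved in different directions, and their sum did not show a larger NMD-type share in the p-UPF1 IP.

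Because a short fragment rarely tells one transcript of a gene from another, the counts were also grouped by a single stretch of sequence: all transcripts that hold an exon which NMD-type transcripts have and the main coding transcript lacks. There were 12 such exons in 7 genes, and for each gene the one whose transcripts held the most counts in Input and the p-UPF1 IP is given (for Srsf4, the longer of 2 that tied). These sums are a description, with no test. They count whole transcripts, so that fragments from outside the exon were still divided among transcripts. In Srsf2, Srsf4, Srsf11 and Tra2b, all windows of the exon given occurred only in the grouped transcripts. This held for 100 of 234 windows in Srsf6, 136 of 426 in Srsf7 and 64 of 422 in Srsf3. For Srsf6, Srsf7 and Srsf3, the grouping thus left much of the exon itself ambiguous. In 4 genes the transcripts with the exon took a larger share of the gene in every p-UPF1 IP library than in any Input library. How often shares separate in this way, in either direction, over all genes with such exons was not computed. Whether these counts of genes are unusual is therefore not known.

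Those with the 104-nt exon of Srsf2 (chr11:116851648-116851751), after the stop codon shown above, held 374, 281 and 346 Input counts against 216, 216 and 198 in the p-UPF1 IP, which is 29.3% ± 3.73 and 66.8% ± 9.68 of the gene (SD, n = 3). For the 117-nt exon of Srsf11 (chr3:158023243-158023359), which holds the stop codon of Srsf11-212, the counts were 117, 82 and 140 in Input against 106, 122 and 136 in the p-UPF1 IP, or 27.0% ± 3.53 and 65.7% ± 4.47. The share of Srsf11 transcripts with the exon was 61.3% or more in each p-UPF1 IP library and 29.9% or less in each Input library. Nearly all of these Srsf11 counts were on Srsf11-213 and Srsf11-218, which are annotated as retained introns. The class test above therefore did not include them as NMD-type. The NMD-type Srsf11-206 and Srsf11-212, which also hold the exon, had only 3 and 4 counts over all 9 libraries. The larger share was thus that of retained-intron transcripts. A second exon of Srsf11 (109 nt, chr3:158024123-158024231), on Srsf11-203, Srsf11-206 and Srsf11-210, was on transcripts with 16, 20 and 34 Input counts against 5, 5 and 15 in the p-UPF1 IP. Their shares of 5.51% ± 1.37 and 4.25% ± 2.19 overlapped (SD, n = 3). The larger share was thus seen for the transcripts grouped by the 117-nt exon and not for those grouped by this one. Because whole transcripts were summed, and Srsf11-206 is in both groups, the difference cannot be assigned to either exon.

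The 276-nt exon of Tra2b (chr16:22258986-22259261), where the stop codon of Tra2b-206 lies, was on transcripts with 17, 37 and 29 Input counts against 24, 36 and 23 in the p-UPF1 IP, or 3.30% ± 1.29 and 20.6% ± 4.36. Scaled by TMM these are 1.19 ± 0.46 and 4.08 ± 0.85 CPM (SD), which is 3.44 times the Input level, although Tra2b as a whole fell. For the 184-nt exon of Srsf4 (chr4:131885309-131885492), downstream of the exon with its premature stop codon, the counts were 37, 30 and 38 in Input against 51, 31 and 42 in the p-UPF1 IP, or 20.0% ± 1.38 and 68.9% ± 27.4. The share reached 100% in p-UPF1 IP replicate 1, where the coding transcript Srsf4-202 had 0 counts, and it was 48.4% and 58.3% in the other libraries.

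In the other 3 genes these transcripts took a smaller share in every p-UPF1 IP library. With the 268-nt exon of Srsf6 (chr2:162932815-162933082) there were 836, 796 and 997 Input counts against 90, 81 and 42 in the p-UPF1 IP, or 69.0% ± 0.93 and 32.3% ± 11.9. With the 456-nt exon of Srsf3 (chr17:29039454-29039909) there were 76, 126 and 105 Input counts against 0, 1 and 3 in the p-UPF1 IP. With the 460-nt exon of Srsf7 (chr17:80204622-80205081) there were 202, 125 and 218 Input counts against 0, 0 and 2 in the p-UPF1 IP. These exons of Srsf3 and Srsf7 hold the stop codons shown above, and the transcripts so grouped were given few counts in the p-UPF1 IP. Most windows of these exons also occur in transcripts outside the group, so that a loss of the exon sequence itself cannot be read from these sums. For Srsf3, most of the Input counts (76, 111 and 105) were on Srsf3-204, which retains an intron. The NMD-type Srsf3-201 had only 0, 15 and 0 Input counts, so that its own loss cannot be read from this sum. Srsf3-205, which begins within the exon and had 814, 590 and 1288 Input counts, is not part of the sum.

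**Figure D4:**
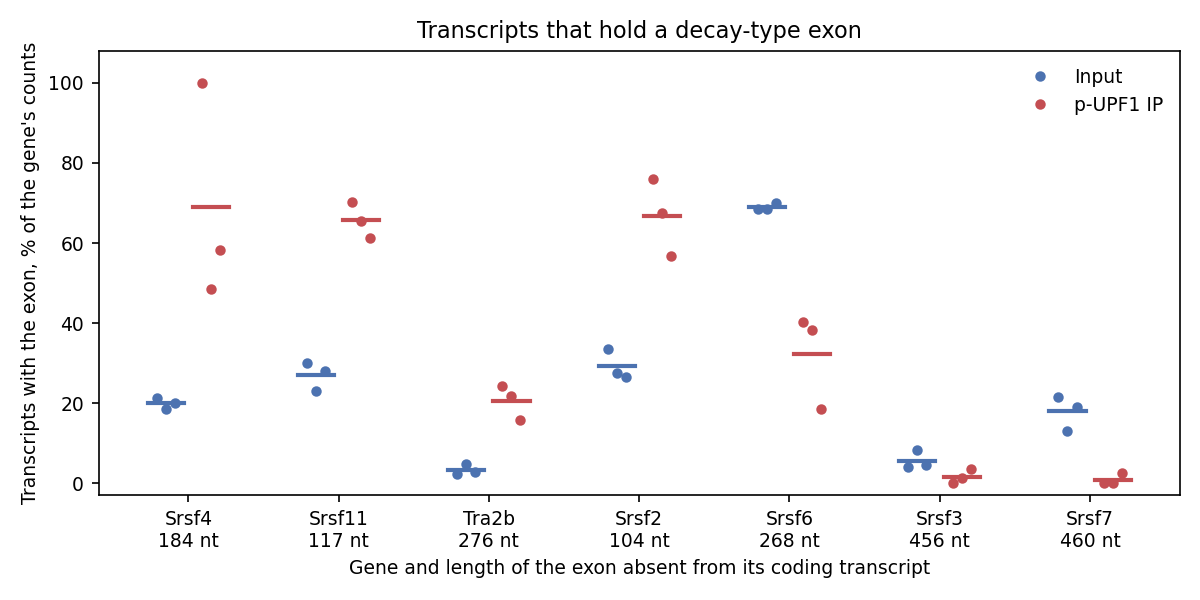
Share of a gene's counts on transcripts that hold the named exon, in percent, by library, with group means as lines. Shares are higher in every p-UPF1 IP library for Srsf4, Srsf2, Srsf11 and Tra2b, and lower for Srsf6, Srsf3 and Srsf7. The Srsf4 point at 100% is p-UPF1 IP replicate 1.

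In the rIgG IP, summed over its 3 libraries, the transcripts with the Srsf2 exon held 24 of 37 counts, a share of 64.9% with an exact binomial 95% interval of 47.5% to 79.8%. Those with the Srsf6 exon held 17 of 29 counts (58.6%, 38.9% to 76.5%), those with the Tra2b exon 5 of 18 (27.8%, 9.69% to 53.5%) and those with the Srsf7 exon 4 of 18 (22.2%, 6.41% to 47.6%). Those with the Srsf4 exon held all 4 of its counts (39.8% to 100%). Those with the Srsf11 exon held 0 of 9 counts, which allows a share of up to 33.3%, and those with the Srsf3 exon 0 of 34, which allows up to 8.82%. These intervals and limits cover counting error only. All 5 Tra2b counts and all 4 Srsf7 counts came from rIgG IP replicate 2. Without that library, an alternative chosen after seeing the data, the Tra2b exon held 0 of 13 counts, which allows up to 23.1%, and the Srsf7 exon 0 of 14, which allows up to 21.4%. For Srsf2, Srsf4 and Tra2b the interval over the 3 libraries includes the mean share in the p-UPF1 IP and not that in Input. The p-UPF1 IP share of these genes was thus not distinguishable from that in the rIgG IP at this depth. That the Input share was left out depended on a single library. Without rIgG IP replicate 1 the intervals for Srsf2 (23.0% to 77.0%) and Srsf4 (2.50% to 100%) include it, as does the Tra2b limit without replicate 2. For Srsf6, Srsf7 and Srsf11 the interval or limit over the 3 libraries includes the Input mean (69.0%, 18.0% and 27.0%). It leaves out their p-UPF1 IP mean (32.3%, 0.88% and 65.7%). Both means are included without rIgG IP replicate 1 for Srsf6 and Srsf11, and without replicate 2 for Srsf7. The Srsf3 limit includes both of its means.

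Transcripts that retain an intron took a larger part of the counts of Srsf5, Srsf6 and Srsf7 and a smaller part of those of Srsf3 and Tra2b in the p-UPF1 IP (edgeR's test of a class within its gene, adjusted p under 0.05). Of the 4731 retained-intron classes tested, 10.2% were called larger and 8.94% smaller. In Srsf5 the share was 7.79%, 4.97% and 7.36% in Input, compared with 24.9%, 25.2% and 30.8% in the p-UPF1 IP (log2 fold change relative to the gene 2.00, edgeR adjusted p = 2.71e-05). In Srsf7 it was 2.04%, 1.47% and 2.19% and then 16.9%, 25.6% and 17.1%, on 13 to 21 counts per p-UPF1 IP library (3.36, edgeR adjusted p = 0.000601). Srsf3 went the other way, from 55.0%, 52.8% and 66.4% in Input to 5.62%, 4.88% and 15.7% in the p-UPF1 IP (-2.77, edgeR adjusted p = 0.000446).

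The calls for Srsf6 (2.30, edgeR adjusted p = 0.0307) and Tra2b (-3.83, edgeR adjusted p = 0.0293) were each lost in 6 of 9 alternatives, with an adjusted p of up to 0.136 and 0.118. For Srsf6 this held without any 1 library other than p-UPF1 IP replicate 3, and for Tra2b without any 1 library other than Input replicate 1. In Srsf11, where 83.0% ± 2.32 of the Input counts were on transcripts of this class (SD, n = 3), the part in the p-UPF1 IP was 92.4% ± 3.28 and did not pass (0.16, edgeR adjusted p = 0.805).

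A few retained-intron transcripts consist mostly of sequence that no other transcript of the gene has, so that their counts are among the least ambiguous. The 3 given below were picked from the transcripts past the thresholds over Input. Another, Srsf2-203 (54.7% of its 35-nt windows its own), had 192, 139 and 186 Input counts against 20, 56 and 44 in the p-UPF1 IP. It was neither enriched nor depleted. Srsf3-210 is 1 unspliced exon, 97.1% of whose 35-nt windows are its own, and it had 109, 109 and 120 Input counts against 0, 3 and 4 in the p-UPF1 IP. Tra2b-208 (96.0% own) had 45, 50 and 47 Input counts against 0, 1 and 0 in the p-UPF1 IP, and Srsf11-208 (75.1% own) had 19, 21 and 35 and then 0, 1 and 1. By that choice all 3 had passed a threshold, here as depleted, and their log2 fold changes were -4.11 ± 0.88, -5.43 ± 1.05 and -3.64 ± 0.97 (SE, edgeR adjusted p = 0.0217, 0.0155 and 0.0422). Leaving out 1 library raised the adjusted p above 0.05 for each, for Srsf3-210 with any but p-UPF1 IP replicate 1 or 3, for Srsf11-208 with any but p-UPF1 IP replicate 1 and for Tra2b-208 with Input replicate 1, while the values stayed within -4.66 to -3.50 for Srsf3-210, -3.95 to -3.07 for Srsf11-208 and -8.12 to -4.88 for Tra2b-208.

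By transcript, 61 of the 89 had the summed count of 10 needed for the test, 82 had any count and 7 had none. Of the 61, 8 were enriched over Input (log2 fold change above 1, edgeR adjusted p under 0.05) and 22 were depleted (below -1), where 8.55% and 16.2% of all 42616 transcripts tested were. The 8 enriched ones were 2 of the NMD type (Srsf2-202 and Tra2b-206), 4 that retain an intron (Srsf1-206, Srsf4-201, Srsf11-211 and Srsf11-218), the protein-coding Srsf2-206 and the processed transcript Srsf5-206. The 22 depleted ones were 11 protein-coding transcripts, 7 that retain an intron, 3 of the NMD type and 1 processed transcript. By gene, Srsf3 had 5 depleted transcripts, Srsf5 and Tra2b had 4 each and Srsf1 had 3.

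Single transcripts rest on how the reads were shared out among overlapping models. The median transcript had 6.24% of its windows to itself and 24 of the 89 had none. Srsf2-202 and the protein-coding Srsf2-206, neither of which has a window of its own, were given the same counts, 91, 71 and 80 in Input against 98, 80 and 77 in the p-UPF1 IP. Each had a log2 fold change of 1.59 ± 0.24 (SE, edgeR adjusted p = 0.00626), while the main coding transcript Srsf2-201 had -1.44 ± 0.24 (SE, edgeR adjusted p = 0.00982). With all 9 libraries in one fit neither call passed (edgeR adjusted p = 0.155 and 0.171, the highest of 13 alternatives that went down to 7.36e-07 and 0.000691), and with library totals Srsf2-201 was at -0.72 (adjusted p = 0.0821). Tra2b-206 was without counts in all Input libraries and had 11, 19 and 13 in the p-UPF1 IP, which was at least 13.3-fold higher when each Input library is set to 3 counts (edgeR adjusted p = 0.00815). Srsf11-211 likewise went from 0 in all Input libraries to 17, 38 and 18 counts, at least 22.5-fold higher (edgeR adjusted p = 0.00624).

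Srsf11-218 went from 0, 0 and 6 to 54, 60 and 66 counts, Srsf1-206 from 0, 0 and 2 to 17, 12 and 17, and Srsf4-201 from 4, 2 and 10 to 24, 10 and 19. Their log2 fold changes were 6.32 ± 1.32, 5.72 ± 1.28 and 3.25 ± 0.78 (SE, edgeR adjusted p = 0.0197, 0.0246 and 0.0306). Srsf5-206 rose from 159, 178 and 98 to 97, 117 and 136 counts in the smaller p-UPF1 IP libraries, which is 6.95 ± 2.29 and 15.5 ± 1.44 CPM (SD) and a log2 fold change of 1.16 ± 0.28 (SE, edgeR adjusted p = 0.0328). The calls for Srsf1-206, Srsf4-201 and Srsf5-206 did not outlast the loss of every library in turn: leaving out p-UPF1 IP replicate 1, for example, gave adjusted p-values of 0.0537, 0.0668 and 0.0588. The NMD-type Srsf4-204, with 32, 28 and 26 Input counts against 25, 21 and 20 in the p-UPF1 IP, had a log2 fold change of 1.12 ± 0.34 and did not pass (SE, edgeR adjusted p = 0.0585). It passed in 4 of 13 alternatives, at 1.25 with RLE factors, 1.82 with library totals, 1.23 with filterByExpr and 1.25 with DESeq2, and its adjusted p ranged from 0.00553 to 0.265.

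At the other end, Srsf7-205 went from 432, 457 and 549 counts in Input to 0 in every p-UPF1 IP library, at least 56.2-fold lower when each p-UPF1 IP library is set to 3 counts. Srsf5-202 (260, 453 and 544 counts to 0, at least 49.0-fold lower), the NMD-type Srsf7-203 (at least 20.9-fold lower) and Srsf1-202 (194, 132 and 160 counts to 0, at least 19.1-fold lower) were alike in having no count in the p-UPF1 IP. Srsf3-205, which retains an intron and has no window of its own, went from 814, 590 and 1288 counts to 5, 0 and 6 and was the most counted transcript of the gene in Input. The coding transcript Srsf3-202 fell less, from 587, 518 and 533 to 84, 78 and 69 counts, with a log2 fold change of -1.32 ± 0.18 (SE, edgeR adjusted p = 0.00454). It did not pass with library totals (-0.62, edgeR adjusted p = 0.0558) or all 9 libraries in one fit (-1.31, 0.129), where the 13 alternatives ranged from 1.07e-05 to 0.129. NMD-type Srsf1-204 had 213, 258 and 242 Input counts against 0, 0 and 23 in the p-UPF1 IP and did not pass (-3.51 ± 1.51, edgeR adjusted p = 0.143). Without p-UPF1 IP replicate 3, which held all 23 counts, it passed, with the lowest adjusted p of 13 alternatives (edgeR, 0.00225 in a range up to 0.237), at a fitted -10.45 that depends on the prior count.

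**Figure D5:**
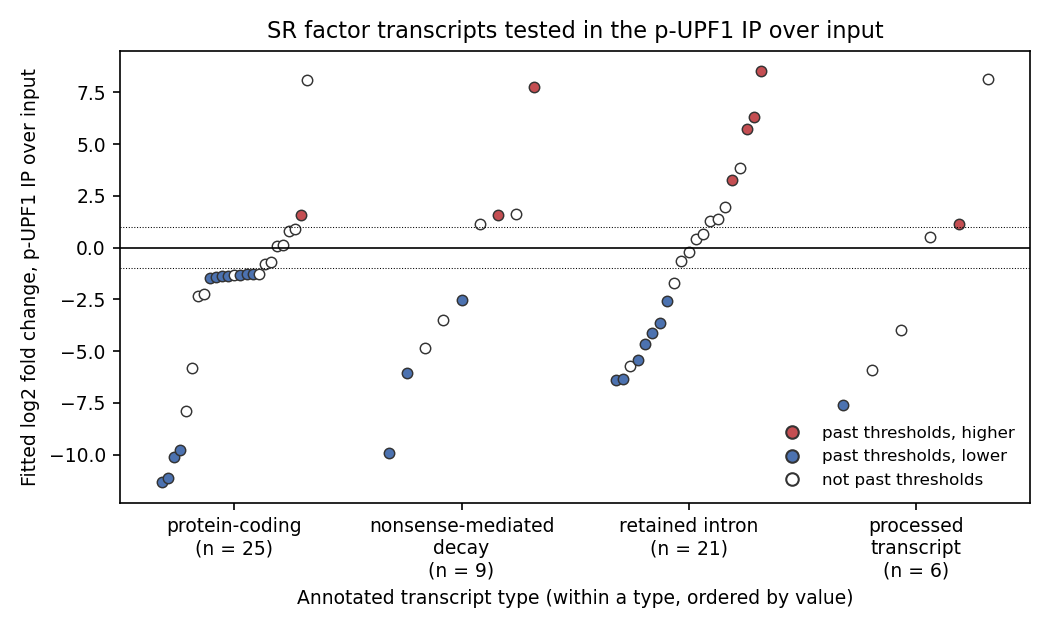
Fitted log2 fold change in the p-UPF1 IP over Input of the 61 transcripts tested, by annotated type (n under each type). Red and blue points passed the thresholds, and dotted lines mark 1 and -1. Of the 9 NMD-type transcripts, 2 were enriched and 3 depleted, and among 21 retained-intron transcripts 4 were enriched and 7 depleted. Values beyond about 5 come from transcripts at or near 0 in 1 group and depend on the prior count.

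Over the rIgG IP, 42 transcripts of these genes could be tested, of which 3 were enriched and 0 depleted (12.7% and 1.34% of all 23034 tested). They were Srsf10-204, Srsf11-213 and Srsf11-218, all with 0 counts in each rIgG IP library, against 163, 257 and 249, 52, 62 and 69, and 54, 60 and 66 upon p-UPF1 IP (edgeR adjusted p = 0.0183, 0.0275 and 0.0276). With the rIgG IP libraries set to 3 counts each, Srsf10-204 was at least 3.68-fold higher, while the bounds for the Srsf11 transcripts were 1.02 and 1.00. Without any 1 of the p-UPF1 IP libraries, 0 of the 3 passed, as was the case for all but 1 or 2 transcripts of any gene. The 0 depleted by edgeR compare with 1 at an unadjusted p under 0.05 (Srsf3-205), and DESeq2 called 1 depleted.

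Related genes served as a background for these values. Of 25 other genes for SR proteins and their relatives, 24 could be tested and 14 were higher and 6 lower in the p-UPF1 IP than in Input, with a median log2 fold change of 0.60, against -0.69 for the 10 genes above. The highest was Sfswap, a regulator of alternative splicing, at 2.96 ± 0.09, and the lowest was Luc7l3, a U1 snRNP-associated protein, at -1.41 ± 0.12 (SE, edgeR adjusted p = 2.36e-09 and 3.42e-06). Of 32 genes for core spliceosome proteins, 8 were higher and 19 lower (median -0.68), from Snrpf, a ring protein of the snRNP core, at -6.93 ± 0.49 to Snrpb, another of these proteins, at 3.35 ± 0.07 (SE, edgeR adjusted p = 7.94e-07 and 4.73e-10). Of the 7 CLK and SRPK kinases, which phosphorylate SR proteins, 6 could be tested, of which 5 were higher and 1 did not pass (median 1.03). Among those that passed they ranged from Srpk1 at 0.51 ± 0.10 to Clk1 at 2.28 ± 0.09 (SE, edgeR adjusted p = 0.00105 and 9.83e-09).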

How the data were processed

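RNA of N2A cells was measured by RIP-seq in 9 libraries, 3 each of Input, rIgG IP and p-UPF1 IP. The authors trimmed and aligned the reads with STAR 2.7.0f to GRCm38.p6 with GENCODE M22 and deposited estimated counts per transcript from Salmon 0.13.1, which came as whole numbers. Salmon divides a short fragment among the transcripts that share it, so that counts of single transcripts are less certain than sums per gene. No normalization of these counts was found in the deposited file.

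Here, counts were taken as deposited, summed by gene symbol where stated, and tested with edgeR 4.0.16 (R 4.3.3), by quasi-likelihood after TMM scaling, for features with a summed count of at least 10 over the 6 libraries of a comparison. Transcript classes within a gene were tested with edgeR's test of differential usage. P-values were adjusted by Benjamini-Hochberg over all features tested, at 0.05, and for transcripts a log2 fold change past 1 was also required. The scripts were tested on simulated data. Alternatives were DESeq2 1.42.0, other scalings and filters, all 9 libraries in one fit, a replicate block and leaving out each library. For transcript classes, pooling the NMD-type and retained-intron counts was another. Exons, stop codons and 35-nt windows came from GENCODE M21 (GRCm38), which matched 139921 of 140658 transcripts.

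All 10 genes were named, with their most counted coding and NMD-type transcripts, every transcript past the thresholds over Input and, from each list of other genes, the highest and the lowest that passed. Transcripts past the thresholds over the rIgG IP and the exon sums were added after their values were seen. The members and lists were chosen with earlier results of these data known.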

Additional observations from a re-analysis of the deposited data

How the results depend on the processing

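Over Input, 6 genes were lower under all 13 alternatives, while those higher (3) numbered 2 to 4 (2 to 3 leaving out 1 library). Genes with a larger NMD class numbered 2 under every alternative run, and those with a smaller one (2) numbered 3 without p-UPF1 IP replicate 3. The alternative that pooled NMD-type and retained-intron counts is included here. Its numbers are of the pooled class and need not be the same genes. Of the genes higher over the rIgG IP (2), 1 was called with RLE factors, filterByExpr, all 9 libraries in one fit or DESeq2 (1 to 2 leaving out 1 library), and of those lower (1), 2 with filterByExpr or DESeq2 (0 to 1). Transcripts enriched over Input (8) numbered 14 with library totals or DESeq2 and 4 with all 9 libraries in one fit (5 to 7 leaving out 1 library), and those depleted (22) numbered 14 with library totals or all 9 libraries. For transcripts against the rIgG IP, the 3 enriched ones became 0 to 7 leaving out 1 library, and the 0 depleted became 2 with all 9 libraries and 1 with DESeq2. Genes with a smaller retained-intron class (2) numbered 1 to 2 leaving out 1 library.

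The direction of small differences depended on the scaling and the filter. Srsf2 over Input was 0.36 with library totals (-0.083 to 0.030 leaving out 1 library). Over the rIgG IP, Srsf2 was -0.051 with RLE factors, -0.13 with filterByExpr and -0.048 with DESeq2. Srsf6 was -0.22, -0.29 and -0.19 in the same order, -0.011 with library totals and -0.16 with all 9 libraries (-0.19 to 0.61 leaving out 1 library), and Tra2b was -0.24, -0.31, -0.24, -0.029 and -0.19 (-0.14 to 0.27). In the rIgG IP over Input, Srsf2 was 0.27 under RLE, 0.21 relative to library totals, 0.043 with filterByExpr and 0.27 with DESeq2 (-0.28 to 0.10 leaving out 1 library), Srsf5 was 0.27, 0.22, 0.047 and 0.28 (-0.20 to 0.13), and Srsf10 was 0.18 under RLE, 0.12 relative to library totals and 0.19 with DESeq2. The cause was not tested.

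The replicate numbers did not pair the libraries, since same-numbered libraries correlated at -0.0273 to 0.0577. With a replicate block, 1 gene was higher and 0 lower over the rIgG IP, the enriched and depleted transcripts over Input numbered 2 and 10, 1 was enriched over the rIgG IP and 1 gene had a smaller retained-intron class. Over all features, the block gave 1076 enriched and 1464 depleted transcripts over Input (3643 and 6905 without it), and 819 enriched over the rIgG IP (2933). The rIgG IP libraries were the shallowest, which limits every comparison with them.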
